A study of Mus musculus with 4 samples.

Results

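Nuclear receptors are transcription factors that small lipid-soluble ligands switch on or off, and the coregulators PGC-1, NCOA and NCOR carry their signal to chromatin. This account follows 50 mouse genes of this kind, receptors and 6 coregulators, through maps of 5-hydroxymethylcytosine (5hmC), a DNA base that arises when TET enzymes oxidise methylated cytosine. A 5hmC peak was counted for a gene when the authors had annotated it with that gene's symbol. The day 20 list held 200 such peaks among 56695, and the day 0 list held 1 among 1050. All 50 genes were found among the 21900 protein-coding genes of the RefSeq table for GRCm38.p6.

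The cells were ATDC5, an established mouse chondrogenic cell line and thus a single-line model of cartilage formation. Both stages were grown in the same serum-containing medium with ascorbic acid. Chondroprogenitors were taken at day 0 (2 libraries), and chondrocytes at days 19 and 20 (1 library each) after insulin, transferrin and selenite had been added. DNA bearing 5hmC was captured with a commercial kit and sequenced. The authors gave 1 peak list from merged samples per stage, so no replicate spread could be measured and no value below carries a test. Whether the libraries came from separate cultures, and whether the day 19 library entered the day 20 list, the labels do not say. The lists gave positions and symbols, with no height, fold or p-value per peak, and the read depth is unknown. Expression was not measured in these lists, so the stage could not be checked by expression. The 10 chondrocyte marker genes looked up were Sox9, Col2a1, Acan, Col9a1, Col11a1, Matn3, Comp, Hapln1, Col10a1 and Runx2. Of these, 9 had the symbol on a day 20 peak and 2 on a day 0 peak. Over all protein-coding genes the shares were 43.8% and 1.81%. Peaks at the marker genes describe the lists and do not test the stage.

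As background, retinoic acid signals through RARs paired with RXRs and restrains cartilage differentiation, while thyroid hormone promotes chondrocyte hypertrophy in the growth plate. Vitamin D, glucocorticoids and oestrogens also act on growth plate cartilage through their receptors. 5hmC in differentiated cells lies mostly in gene bodies and at enhancers, away from CpG-dense promoters.

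At day 20, 36 of the 50 genes carried at least 1 peak by symbol (72.0%, Wilson 95% interval 58.3 to 82.5%), against 43.8% of all protein-coding genes. They held a median of 2 peaks, against 0 over all protein-coding genes. Of the 50, 10 had 1 peak, 13 had 2 to 4, 9 had 5 to 9, and 4 had 10 or more. Thus 13 (26.0%) held 5 or more, against 8.48% of all protein-coding genes. Those 4 (Rora, Esr1, Thrb and Ncoa2) held 86 of the 200 peaks, or 43.0%. Rora alone held 41, or 20.5%. Intervals here and below cover counting error only, and genes of a list are not replicates.

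**Figure D1:**
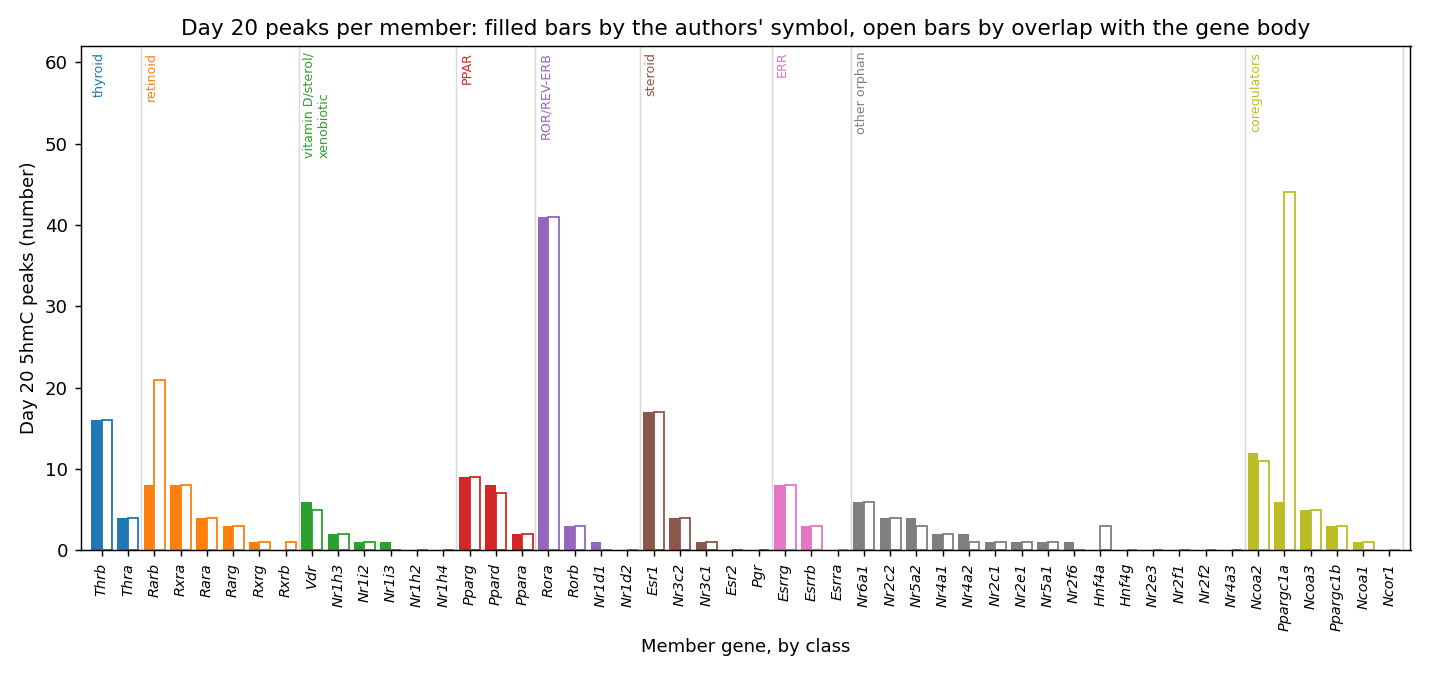
Number of day 20 5hmC peaks at each of the 50 genes, grouped by class. Filled bars count peaks with the authors' symbol and open bars count peaks overlapping the RefSeq gene body. The open bars exceed the filled ones most for Ppargc1a (44 against 6) and Rarb (21 against 8).

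Gene length goes along with these counts. The 50 genes had a median length of 67.4 kb and all protein-coding genes 17.1 kb. Over their summed length the 50 held 2.96 peaks per 100 kb by symbol, against 3.07 for all protein-coding genes, so by symbol the density of the set lay close to the background although more of its members carried a peak. By overlap with the gene body the order turned, with 3.66 peaks per 100 kb against 3.002 for all protein-coding genes. Without Rora the density by symbol was 2.64 per 100 kb.

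Set beside genes of like length, the members were not all on the same side. Below 20 kb, 5 of 11 carried a peak (45.5%, 21.3 to 72.0%) against 25.8% of all such genes. Between 20 and 100 kb, 15 of 21 did (71.4%, 50.04 to 86.2%) against 60.5%. Between 100 and 300 kb, 9 of 11 did (81.8%, 52.3 to 94.9%) against 82.4%, and their 2.38 peaks per 100 kb stood below the 3.54 of all such genes. At 300 kb and over, all 7 did (100%, 64.6 to 100%) against 71.3%. Their 2.65 peaks per 100 kb stood above the 1.69 of all such genes. Rora alone held 41 of the 100 peaks of these 7 members. The density in the shortest band was 5.79 per 100 kb against 4.68, but rests on 7 peaks. By overlap with the gene body it was 3.31 against 3.23.

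**Figure D2:**
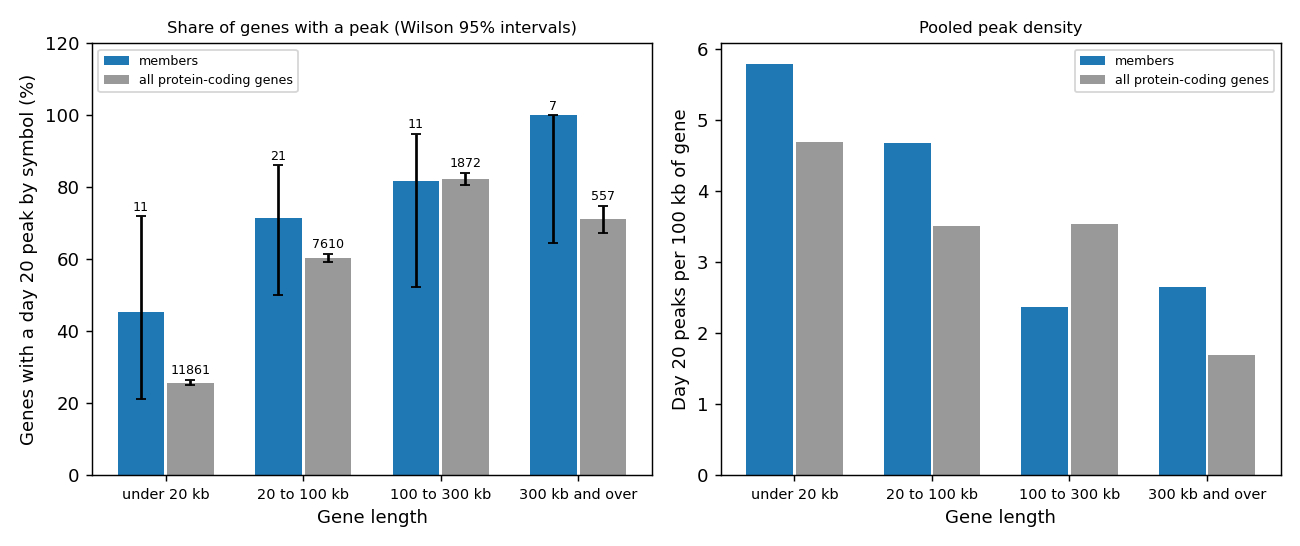
Left, percent of genes with a day 20 peak by symbol in 4 bands of gene length, with Wilson 95% intervals and the number of genes above each bar. Right, pooled day 20 peaks by symbol per 100 kb of gene. There the 50 genes stand above all protein-coding genes in 3 bands and below them from 100 to 300 kb.

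The classes differed in both peak number and density. ROR and REV-ERB genes held 45 peaks (3 of 4 genes), coregulators 27 (5 of 6), retinoid receptors 24 (5 of 6) and steroid receptors 22 (3 of 5). Thyroid hormone receptors held 20 (2 of 2), PPARs 19 (3 of 3), oestrogen-related orphan receptors 11 (2 of 3) and the vitamin D, oxysterol, bile acid and xenobiotic receptors 10 (4 of 6). The other orphan receptors held 22 in 9 of 15 genes. Per 100 kb of gene, PPARs were densest with 7.03 peaks, thyroid hormone receptors followed with 4.89, and oestrogen-related receptors were sparsest with 1.41. Below the background of 3.07 also lay retinoid receptors with 2.80, the other orphan receptors with 2.61, steroid receptors with 2.25 and coregulators with 1.85. That background takes no account of gene length. Over all protein-coding genes of 300 kb and over the density by symbol was 1.69, and Rarb, Esr1, Nr3c2, Esrrg and Ppargc1a are of that length. No background matched to the lengths in each class was computed. By gene body, against a background of 3.002, retinoid receptors turned to 4.44 and coregulators to 4.39, above it. The peaks without a symbol in Rarb (13) and Ppargc1a (38) enter these values. With 2 to 15 genes per class, these orders describe the genes listed.

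The thyroid hormone receptors, which bind triiodothyronine, both carried peaks at day 20. Thrb (chr14:17659225-18040097) held 16 peaks spread over its whole length, with 3, 3, 5 and 5 in 4 equal parts from 5' to 3' and widths from 378 to 1118 bp. Thra (chr11:98740776-98769006), the form known to prevail in bone, held 4 peaks in 28.2 kb, or 14.2 per 100 kb. Its widest peak, chr11:98747905-98750624, spanned 2720 bp and was the widest of the 200. The pair thus reached their counts in opposite ways, Thrb with many ordinary peaks in a long gene and Thra with few wide ones in a short gene.

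The body of Thra overlaps that of Nr1d1, which encodes the circadian repressor REV-ERB alpha, over 1075 bp. No day 20 peak overlapped Nr1d1. The 1 peak the authors gave it lay 7.557 kb upstream of its start (chr11:98782635-98783234). None of the 4 Thra peaks reached the shared stretch, since the last ended at position 98763453 and Nr1d1 begins at 98767932.

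Among the retinoid receptors, the heterodimer partner Rxra (chr2:27676445-27763319) held 8 peaks in 86.9 kb, or 9.21 per 100 kb. Of these, 4 exceeded 1000 bp, the widest at chr2:27732442-27734516 with 2075 bp. Rxrg held 1 peak in 41.3 kb. Rxrb had none by symbol, and the only peak touching its body overlapped its last 13 bp. That peak, chr17:34038391-34041933, spanned 3543 bp and ranked 17 by width in the whole day 20 list. The authors annotated it to the neighbouring Col11a2, which encodes a chain of cartilage collagen XI. Another day 20 peak, without the Rxrb symbol, lay outside the gene body, 0.893 kb from a listed Rxrb start.

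All 3 RAR genes carried peaks. Rara (chr11:98927800-98974942) held 4 day 20 peaks of 695 to 1488 bp, and Rarg, which is known to be the main RAR of growth plate cartilage, held 3 of 742 to 1060 bp in 22.6 kb. Rarb (chr14:16430839-17082331), a classic retinoic acid target, held 8 by symbol with a median width of 456.5 bp. By overlap with the gene body Rarb held 21. All 13 peaks without its symbol lay upstream of the 1 start site listed for it, between 29.2 and 504 kb away, inside the longer RefSeq gene model that begins 507 kb farther out.

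Rara was the only gene of the 50 with a day 0 peak by symbol, against 1.81% of all protein-coding genes. The peak, chr11:98938352-98938469, spanned 118 bp and lay 0.692 kb downstream of a listed Rara start. It did not overlap a day 20 peak, and the nearest was 7594 bp away. The day 20 list was 54.0 times longer than the day 0 list, so the absence of a member from the day 0 list does not show a difference between the stages.

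The vitamin D receptor gene Vdr (chr15:97854427-97908296) led its class with 6 peaks, or 11.1 per 100 kb. They spanned 477 to 1823 bp, and 4 exceeded 1000 bp. The first in gene order lay 5.45 kb upstream of the Vdr start and the other 5 within the gene. Nr1h3, the oxysterol receptor LXR alpha, held 2 peaks, and the xenobiotic receptors Nr1i2 (PXR) and Nr1i3 (CAR) held 1 each, that of Nr1i3 being 0.907 kb upstream of its start. Nr1h2 (LXR beta) and Nr1h4 (the bile acid receptor FXR) had none.

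All 3 PPARs, receptors for fatty acids, carried peaks. Pparg (chr6:115360879-115490404), the regulator of fat cell differentiation, held 9 of 345 to 791 bp, none over 1000 bp. Ppard (chr17:28232754-28301469) held 8 of 432 to 1871 bp, 4 of them over 1000 bp, at 11.6 per 100 kb against 6.95 for Pparg. Ppara held 2 in 71.9 kb, with widths of 323 and 519 bp. The number of peaks thus separated Ppara from Ppard and Pparg. Of the 3, only Ppard had peaks over 1000 bp, and its other peaks lay within the Pparg range of widths.

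Rora (chr9:68653404-69388246) carried the most peaks of the 50, 41 in 735 kb, or 5.58 per 100 kb. It encodes ROR alpha, a receptor of the circadian clock and of cartilage and bone. By symbol it ranked 9 of 557 protein-coding genes of 300 kb or more. Its peaks were of ordinary width (379 to 1217 bp, median 605 bp against 591 bp for the whole list). They lay along the gene with a median gap of 10.4 kb between midpoints. In 4 equal parts of the gene, from 5' to 3', lay 10, 7, 10 and 14 peaks. The longest gap between the midpoints of neighbouring peaks was 91.5 kb, and the first peak lay 36.8 kb beyond the start. Its relative Rorb held 3 in 181 kb, Nr1d1 held 1 and Nr1d2, the other REV-ERB, none.

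**Figure D3:**
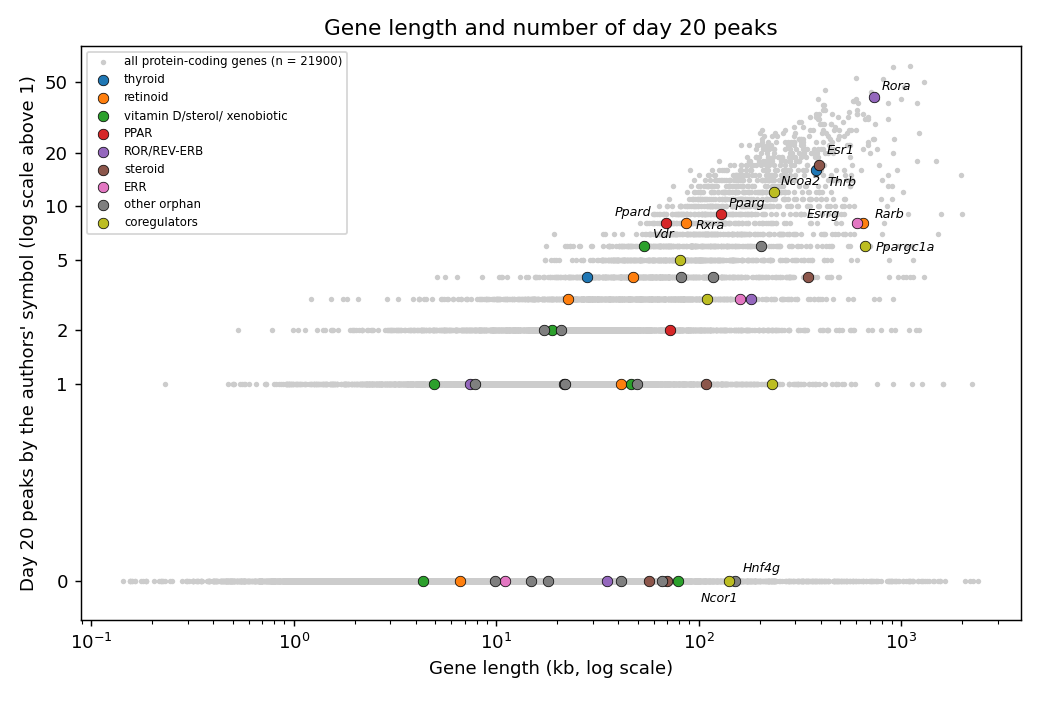
Day 20 peaks by the authors' symbol against gene length for all 21900 protein-coding genes (grey) and the 50 genes (coloured by class), with a log axis for length and for counts above 1. Rora, with 41 peaks, lies near the upper edge of the grey points, while Ncor1 and Hnf4g have none although they exceed 100 kb.

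The steroid receptors divided between 1 gene with many peaks and others with few or none. Esr1 (chr10:4611989-5005633), which encodes oestrogen receptor alpha, held 17 peaks in 394 kb. They were narrow, with a median of 443 bp and none over 1000 bp. They lay toward its 5' end, with 8, 4, 1 and 4 in 4 equal parts of the gene. Esr2, encoding oestrogen receptor beta, held none in 56.8 kb, and Pgr, the progesterone receptor gene, none in 69.7 kb. The mineralocorticoid receptor gene Nr3c2 held 4 in 347 kb, with the first 122 kb past its start, and the glucocorticoid receptor gene Nr3c1 held 1 of 386 bp in 109 kb.

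The oestrogen-related receptors, orphans that resemble oestrogen receptors but bind no oestrogen, had the lowest density of the classes, as given above. Esrrg (chr1:187608510-188214885) held 8 peaks in 606 kb, 1.32 per 100 kb, with 0, 3, 2 and 3 in 4 equal parts from 5' to 3'. Esrrb held 3 in 161 kb, and Esrra, a partner of PGC-1 in mitochondrial gene control, held none in 11.1 kb. The 8 peaks of Esrrg exceeded the median of 5 among all protein-coding genes of 300 kb or more. Per 100 kb, however, its 1.32 lay below the 1.69 pooled over all such genes. The 3 peaks of Esrrb stood below the median of 4 among genes of 100 to 300 kb.

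Of the 15 other orphan receptors, Nr6a1, the germ cell nuclear factor, held the most with 6 in 203 kb. Nr2c2 and Nr5a2 held 4 each, Nr4a1 and Nr4a2 held 2 each, and Nr2c1, Nr2e1, Nr2f6 and Nr5a1 held 1 each. Hnf4a, Hnf4g, Nr2e3, Nr2f1, Nr2f2 and Nr4a3 held none by symbol. In Hnf4a, 3 peaks of 420 to 487 bp lay within the gene but bore the symbol 0610008F07Rik. The NR4A genes are immediate-early genes, and the Nr4a2 peak chr2:57124360-57125360 lay upstream of the gene, with its near edge 0.357 kb from the start.

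Coregulators ranged from the gene with the most peaks by position to one with none. Ncoa2, a histone acetyltransferase-recruiting coactivator of the p160 family, held 12 peaks in 235 kb (chr1:13139105-13374227), Ncoa3 held 5 in 80.6 kb and Ncoa1 held 1 in 230 kb. Ppargc1b, encoding PGC-1 beta, held 3. Ncor1, a corepressor that brings HDAC3 to unliganded receptors, held none in 142 kb by symbol or position, and its nearest day 20 peak was 36.9 kb away.

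Ppargc1a (chr5:51454249-52115853), encoding PGC-1 alpha, held 6 peaks by symbol and 44 by overlap with its 662 kb gene body. By position it ranked 9 among the 557 genes of 300 kb or more, and by symbol 253. The 6 peaks with its symbol lay downstream of the 1 listed start. The 38 without a symbol had midpoints upstream of it, from 0.281 to 545 kb away. Density was 5.29 per 100 kb downstream of that start and 6.93 per 100 kb upstream. Most of the peaks in the Ppargc1a gene body thus carried no symbol in the authors' annotation.

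Ppargc1a was also the second gene with a day 0 peak when peaks were placed by position (2 of 50, against 1.76% of all protein-coding genes). That peak, chr5:51591665-51591865, spanned 201 bp and lay wholly inside the day 20 peak chr5:51591332-51592681 of 1350 bp, 24.04 kb upstream of the listed start. It was the only position among these genes found in both lists. None of the 200 peaks with a member's symbol overlapped a day 0 peak, where a count of 0 allows up to 1.5%. Over all day 20 peaks with a protein-coding symbol, 0.745% did.

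**Figure D4:**
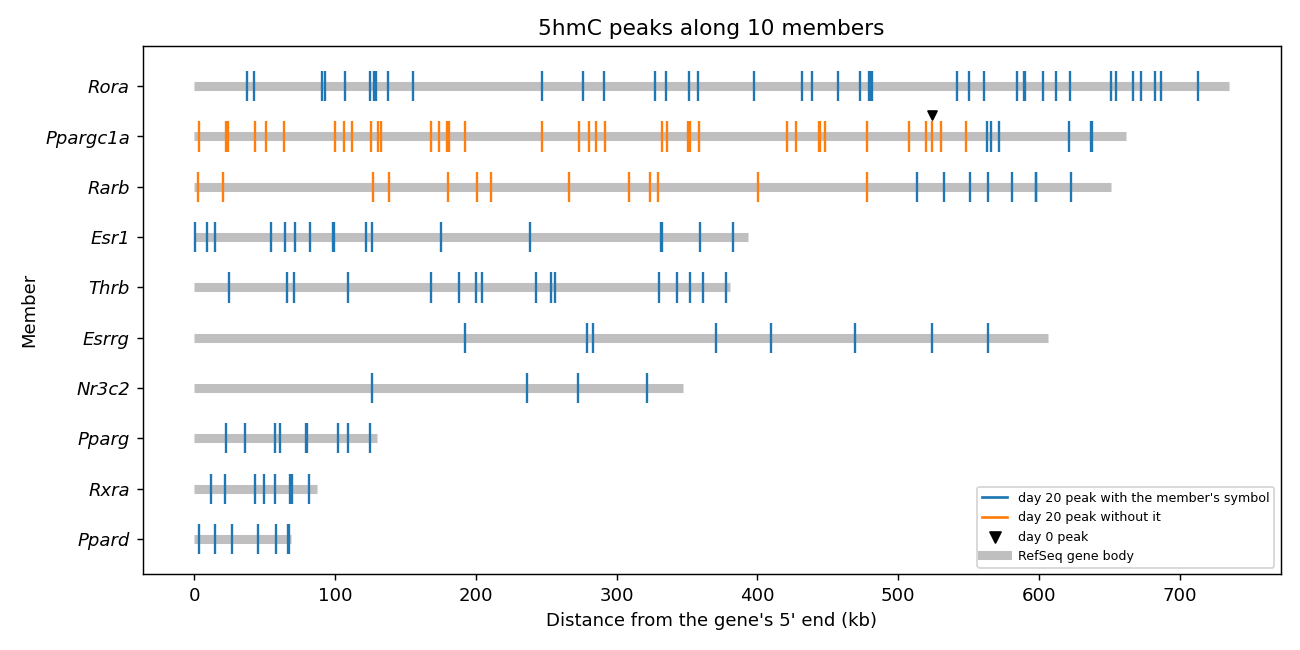
Positions of 5hmC peaks along 10 of the genes, in kb from the 5' end of the RefSeq gene body (grey). Blue lines are day 20 peaks with the gene's symbol, orange lines day 20 peaks without it, and the black triangle a day 0 peak. The orange lines fill the 5' part of Ppargc1a (38) and Rarb (13).

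Most of the 200 peaks lay inside their gene: 192 had their midpoint in the gene body (96.0%, 92.3 to 98.0%), against 88.8% over all protein-coding symbols. The other 8 belonged to Vdr, Nr1i3, Ppard, Nr1d1, Nr2f6, Nr4a2, Nr5a2 and Ncoa2, 1 each. Of the 174 peaks whose gene had a listed start, 9 lay within 1 kb of one (5.17%, 2.74 to 9.54%), against 6.31% over all protein-coding symbols. At more than 100 kb lay 33.9% (27.3 to 41.2%), against 18.9%. Rora, with 41 of the 174 peaks, held most of those beyond 100 kb, so this share rests largely on 1 gene. The share without Rora was not computed. The members are longer than most genes, and the part of length in the difference from 18.9% was not tested. Of 167 peaks inside genes with a known strand, 41.9% (34.7 to 49.5%) lay on the 5' side of the gene's midpoint, against 51.8% over all genes. Without Rora it was 42.1% (33.8 to 50.8%). By gene body, which adds the peaks without a symbol upstream of the listed starts of Ppargc1a and Rarb, it was 47.5% (41.0 to 54.1%), against 52.8% over all genes.

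Promoters were examined in windows from 250 bases before to 50 after each listed start, in GRCm38.p6 from RefSeq, which gave 65 windows for 43 of the genes. Thra, Nr3c1, Nr5a1, Ncoa2, Hnf4g, Ppargc1b and Ncoa3 were not matched. A day 20 peak overlapped 4 of the 65 windows (6.15%), against 3.74% of the 21263 windows of protein-coding genes, and no day 0 peak overlapped any of the 65. These 4 were windows of Rxrg, Ppargc1a, Pparg and Esr1, and each lay well inside the gene body. The peak midpoints were 20.0 kb from the 5' end of Rxrg, 61.0 kb from that of Pparg, 98.3 kb from that of Esr1 and 548 kb from that of Ppargc1a.

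The 4 are shown because, of the 65 windows examined, they are those that a day 20 peak overlapped. At Pparg the peak reached into the window but ended 0.035 kb short of the start itself. Each run is the 250 bases before the start, 5' to 3' on the gene's strand, with CpG dinucleotides, the usual sites of cytosine methylation and so of 5hmC, in capitals.
Rxrg, internal start, chr1:167618015-167618264, plus strand: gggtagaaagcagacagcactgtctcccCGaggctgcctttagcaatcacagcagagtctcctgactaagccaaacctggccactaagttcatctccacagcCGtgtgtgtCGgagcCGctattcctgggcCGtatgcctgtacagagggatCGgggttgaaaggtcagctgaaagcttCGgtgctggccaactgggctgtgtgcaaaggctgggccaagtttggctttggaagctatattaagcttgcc
Ppargc1a, listed start, chr5:51567726-51567975, minus strand: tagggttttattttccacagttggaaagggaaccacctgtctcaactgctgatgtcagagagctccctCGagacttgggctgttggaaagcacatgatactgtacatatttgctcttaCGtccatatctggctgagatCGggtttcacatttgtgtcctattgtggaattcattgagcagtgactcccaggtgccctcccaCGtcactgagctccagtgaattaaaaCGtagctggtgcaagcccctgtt
Pparg, internal start, chr6:115421816-115422065, plus strand: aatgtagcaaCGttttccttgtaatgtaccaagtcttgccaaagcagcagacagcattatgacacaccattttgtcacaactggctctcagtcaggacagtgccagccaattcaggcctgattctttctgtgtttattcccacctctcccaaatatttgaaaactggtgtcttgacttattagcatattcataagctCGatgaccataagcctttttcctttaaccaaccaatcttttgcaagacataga
Esr1, internal start, chr10:4709908-4710157, plus strand: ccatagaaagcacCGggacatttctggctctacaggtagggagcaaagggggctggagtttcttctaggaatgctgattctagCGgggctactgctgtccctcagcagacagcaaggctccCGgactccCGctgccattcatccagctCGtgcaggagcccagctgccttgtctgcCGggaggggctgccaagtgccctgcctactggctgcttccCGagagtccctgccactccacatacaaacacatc
These 4 windows held 9, 5, 2 and 12 CpG in their 300 bases, in the order shown. The downstream Pparg start, known as that of the fat cell isoform PPAR gamma 2, had the fewest. The peaks were chr1:167617883-167618750 (868 bp) at Rxrg, chr5:51567541-51568471 (931 bp) at Ppargc1a, chr6:115421687-115422031 (345 bp) at Pparg and chr10:4709979-4710525 (547 bp) at Esr1. The first pair of peaks covered the whole window, and the others 216 and 229 of its 300 bases.

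For contrast, the upstream start of the same Pparg gene and the window with the most CpG of all 65, that of Rxra, were free of peaks.
Pparg, upstream start, chr6:115360894-115361143, plus strand: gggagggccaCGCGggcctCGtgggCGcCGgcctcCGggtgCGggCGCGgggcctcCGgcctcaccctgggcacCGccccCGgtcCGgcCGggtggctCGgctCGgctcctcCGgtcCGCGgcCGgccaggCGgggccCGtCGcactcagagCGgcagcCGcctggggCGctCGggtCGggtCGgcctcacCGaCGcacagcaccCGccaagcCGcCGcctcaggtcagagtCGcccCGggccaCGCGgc
Rxra, upstream start, chr2:27676951-27677200, plus strand: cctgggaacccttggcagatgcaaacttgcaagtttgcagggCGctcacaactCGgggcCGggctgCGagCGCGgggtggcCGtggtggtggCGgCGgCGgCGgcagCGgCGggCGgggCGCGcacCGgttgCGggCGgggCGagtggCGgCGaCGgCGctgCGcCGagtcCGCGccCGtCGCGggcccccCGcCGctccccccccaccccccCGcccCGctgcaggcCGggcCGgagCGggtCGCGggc
These windows held 44 and 55 CpG. Their nearest day 20 peaks lay 11.1 kb from the Pparg start and 8.495 kb from the Rxra start.

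Over the 65 windows, a peak overlapped 3 of the 29 with 10 or fewer CpG (10.3%) and 1 of the 36 with more (2.78%). Over all protein-coding genes the shares were 4.89% and 2.79%. Peaks just beside a start showed the opposite order. A peak within 1 kb of the start but outside the window was found at 5 of the 36 CpG-rich windows (13.9%) and 2 of the 29 others (6.90%), against 11.7% and 4.22% over all protein-coding genes. The immediate-early genes Nr4a1 and Nr4a2, with 35 and 52 CpG, had their nearest peak 0.320 and 0.357 kb from the start. Nr2f6, with 53 CpG, had it 0.656 kb away. Peaks beside rather than on CpG-rich starts were thus also seen over all protein-coding genes.

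The motif AGGTCA, the core element that many nuclear receptors bind, was searched on both strands (AGGTCA and TGACCT) in the 300-base windows. It occurred in 11 of the 65 windows (16.9%) and in 14.7% of all protein-coding windows. Of the 4 windows with a peak, that of Rxrg held it, starting at base 163 of the window. Of the 61 windows without a peak, 10 held it (16.4%), among them the upstream Pparg window shown above. A match of 6 letters is a description of the sequence and not a binding site.

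Peak width set some receptors apart. The 200 peaks had a median of 587.5 bp (quartiles 473.75 and 771.25 bp), against 591 bp for the whole list, and 26 of them (13.0%) exceeded 1000 bp, against 12.4% of the list. Many of the 26 lay in 5 genes under 100 kb, where they made up 3 of 4 peaks in Thra, 2 of 4 in Rara, 4 of 6 in Vdr, 4 of 8 in Rxra and 4 of 8 in Ppard. In Pparg, Esr1, Esrrg and Ncoa2 no peak exceeded 1000 bp, and in Rora 2 of 41 did. The 5 receptors with wide peaks were singled out after their values were seen. Among the 8 members shorter than 100 kb with 3 or more peaks, the median width was 811.5 bp over 42 peaks, against 648 bp in the 1983 protein-coding genes that meet the same condition. In the members of 300 kb or more it was 569.5 bp, against 570 bp in all genes of that length.

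**Figure D5:**
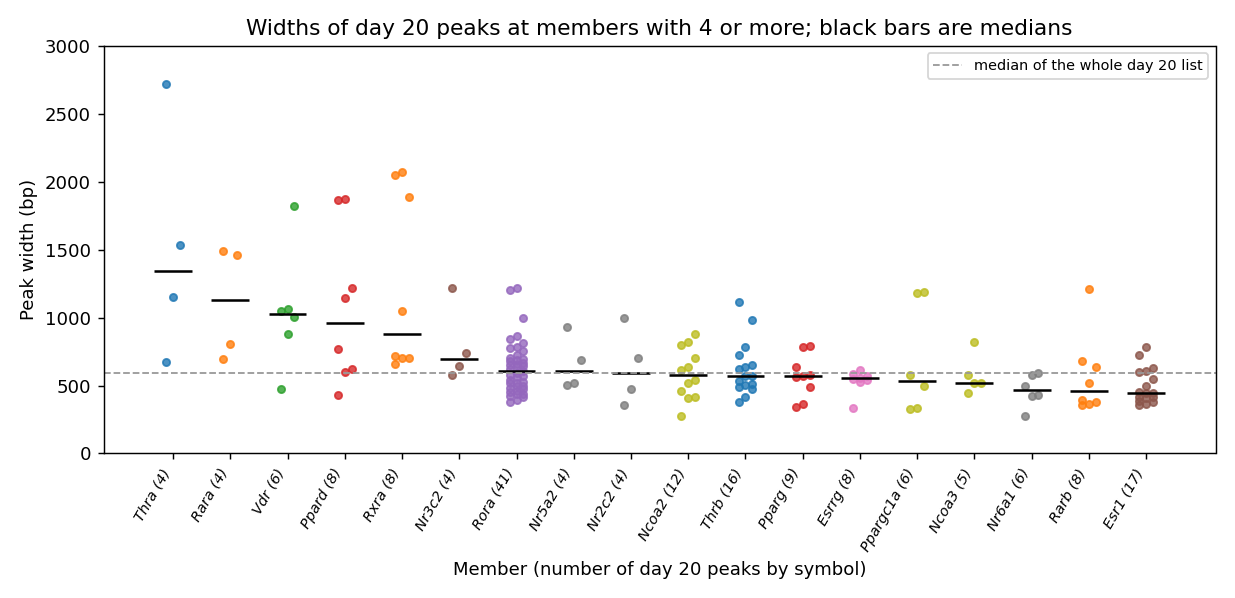
Width in bp of each day 20 peak by symbol at the 18 genes with 4 or more, ordered by their median (black bars), with the number of peaks in brackets and the median of the whole list dashed. Thra, Rara, Vdr, Ppard and Rxra have the highest medians (1343.5 to 881.5 bp), and Esr1 the lowest with 443 bp.

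By symbol and by position alike, 12 of the 50 genes had no day 20 peak, against 11908 of the 21900 protein-coding genes. The 12 were Nr1h2, Nr1h4, Nr1d2, Esr2, Pgr, Esrra, Hnf4g, Nr2e3, Nr2f1, Nr2f2, Nr4a3 and Ncor1. Their median length was 38.2 kb (4.35 to 152 kb), against 81.1 kb for the 36 with a peak. The nearest peak ranged from 1.05 kb away at Nr4a3 and 1.86 kb at Nr2e3 to 144 kb at Pgr, 163 kb at Nr2f1 and 1077 kb at Hnf4g, a receptor of liver and gut. The COUP-TF genes Nr2f1 and Nr2f2, active in mesenchyme, differed in their surroundings. Within 100 kb on either side Nr2f2 had 6 day 20 peaks and Nr2f1 had 0. With 5 kb added to both sides of the gene body, 41 of the 50 genes had a peak, against 50.8% of all protein-coding genes.

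The wider pathway was followed in 47 further genes, all found in the table, of which 23 carried a day 20 peak by symbol and 1 a day 0 peak. The shares stand beside the same 43.8% and 1.81%. Among 16 other coregulators, 10 had a day 20 peak. Ncoa6, a coactivator, had a day 0 peak by symbol and no day 20 peak. Lcor, a ligand-dependent corepressor, had 1 day 0 peak and 2 day 20 peaks in its body, none of them with its symbol. Of 21 genes for the synthesis, breakdown and binding of ligands, 9 had a peak, and Aldh1a2, which makes retinoic acid, had the most with 5. Of 5 chaperone genes of steroid receptors 2 did, with 5 peaks in Fkbp5, a well-known glucocorticoid target. Of the 5 remaining nuclear receptors 2 did, with 3 peaks in Nr1h5.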

How the data were processed

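The deposited values were peak start and end positions in bp, a gene symbol and a transcript accession. Per the file headers, the authors kept peaks of 10-fold enrichment, from merged samples for each stage; the reference for that enrichment is not stated. The submitters' processing notes name MACS 1.4.2, BWA, cutadapt, FastQC and, as build, GRCm38 (mm10), without saying what each did. Depth is unknown, and 3 of the 56698 day 20 entries without a readable end were left out.

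Width is end minus start plus 1, as the base at which starts are counted is not stated. Gene bodies and promoters came from RefSeq GRCm38.p6, and exons were not used. Peaks were given to genes by the authors' symbol, and over all protein-coding genes by transcript accession where a symbol was not in the table. Shared means an overlap of at least 1 bp. The genes and lists were chosen with earlier results of these data known. Values were given for the leading gene of each class, genes with 5 or more peaks, a day 0 peak, a promoter peak or counts differing by 5 or more between symbol and position; others named were chosen after their values were seen, and some genes of the wider pathway are not reported here by name. Counting steps were tested on simulated peaks. Python 3.11.15, numpy 2.4.6, pandas 2.3.3, scipy 1.17.1 and matplotlib 3.10.9 were used.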

Additional observations from a re-analysis of the deposited data

How the results depend on the processing

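Of 30 alternatives over 9 results, 19 stayed within 1.5 times the reported count or within the counting interval of the value. The 11 others moved. Placing peaks by gene body gave 2 genes with a day 0 peak in place of 1, 2 day 0 peaks in place of 1, and 1 shared day 20 peak in place of 0, and gene body plus 5 kb gave the same 2, 2 and 1. The pooled density, 2.96 per 100 kb (Poisson 95% interval 2.56 to 3.40), became 3.66 by gene body (3.002 over all protein-coding genes), 3.92 with peaks in 5 kb on either side, and 3.65 when that margin was added to the length as well. With only peaks at least as wide as the list median, 100 peaks remained and the density was 1.48, as fewer peaks entered. Leaving out Rora was chosen after seeing the data and gave 159 peaks and 2.64 per 100 kb. The share of peaks on the 5' side of the gene's midpoint by gene body, 47.5%, was also added after seeing the data. No paired analysis was possible because each stage was 1 merged list, and no library could be left out for the same reason. Unknown depth limits what the absence of a peak shows.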
